A study of Mus musculus with 22 samples.

Results

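The genes described here are 7 members of the cadherin and tight junction families: Cdh1 (E-cadherin), Cdh2 (N-cadherin), the claudins Cldn1, Cldn2 and Cldn3, Ocln (occludin) and Tjp1 (the scaffold protein ZO-1). Their members in the data are the ATAC-seq peaks that the authors assigned to 1 of these genes and whose centre lay within 50000 bp of its transcription start. This rule found 63 of 68827 peaks, namely 19 for Cdh1, 7 for Cdh2, 7 for Cldn1, 3 for Cldn2, 7 for Cldn3, 10 for Ocln and 10 for Tjp1. A further 25 peaks of the same genes lay farther away. The farthest Cdh1 peak inside the limit lay 38993 bp from its start, and the nearest one outside it belonged to Cdh2, at 50900 bp. Counts were also summed over the peaks of each gene within the limit, for 15686 genes in all. ATAC-seq marks DNA that a transposase can reach, so a peak or a gene sum measures open chromatin near a gene and not its expression.

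The libraries were made from liver nuclei of male HEP-INTACT mice, pulled down on beads by INTACT, a method that captures nuclei carrying a cell-type-restricted tag. In the FPC arm, mice ate the FPC diet for 20 weeks and were split by liver histology into advanced (3 libraries) and mild (4 libraries) NASH, against 4 control mice on a low fat diet for as long. In the CDAHFD arm, mice ate the CDAHFD for 7 weeks and were split likewise into advanced (3 libraries) and mild (4 libraries), against 4 low fat controls of the same duration. Both diseased groups had steatosis and inflammation, and significant fibrosis marked the advanced group, so stage was assigned after the diet and not randomised. Diet, duration and any difference in handling between the arms cannot be told apart.

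Cadherins hold neighbouring hepatocytes together at adherens junctions, where their tails bind catenins linked to actin. Mouse hepatocytes carry both E-cadherin, mainly near the portal tract, and N-cadherin. Tight junctions, built from claudins and occludin and anchored by ZO-1, seal the bile canaliculus so that bile does not leak into the blood. E-cadherin and Cldn4 or Cldn7 are also typical of bile duct epithelium.

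The total count in peaks ranged in units of 1e6, from 3.79 to 9.33 per library and was lowest in FPC controls (4.50 ± 1.04, SD, n = 4). Within groups, Pearson's r of log2 CPM over peaks lay between 0.925 and 0.969, and no libraries were identical. Of 10 hepatocyte marker genes, all 10 had a peak, and their summed level was between 1495 and 2228 CPM (counts per 1e6 counts) in every library. Because each library pools the nuclei that were pulled down, fewer cells of a type and less signal per cell cannot be told apart. Where livers are named below, these pulled-down nuclei are meant and not the whole tissue.

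Promoter sequence is shown for Cldn3, Cldn1, Tjp1 and Ocln, because a peak lies over their start and these genes went different ways in the results below. Of the 7 genes, 5 had a RefSeq promoter window of 300 bases (GRCm38.p6). The stretches printed are the bases before the start that a promoter peak covers (for Ocln, which has 2 annotated starts each with a peak, the larger of the 2 peaks), 5′ to 3′ on the gene's strand, with each CG pair in capitals.
Cldn3, chr5:134986063-134986213, plus strand: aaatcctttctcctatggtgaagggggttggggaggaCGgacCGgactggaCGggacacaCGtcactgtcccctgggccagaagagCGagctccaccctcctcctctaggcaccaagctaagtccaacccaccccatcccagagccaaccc
Cldn1, chr16:26371840-26371936, minus strand: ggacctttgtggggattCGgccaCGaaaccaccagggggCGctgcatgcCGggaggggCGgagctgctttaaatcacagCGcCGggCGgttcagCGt
Tjp1, chr7:65371245-65371395, minus strand: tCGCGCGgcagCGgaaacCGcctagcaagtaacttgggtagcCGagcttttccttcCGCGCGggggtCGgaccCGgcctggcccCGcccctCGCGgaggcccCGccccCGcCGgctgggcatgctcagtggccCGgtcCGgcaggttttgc
Ocln, chr13:100552719-100552827, minus strand: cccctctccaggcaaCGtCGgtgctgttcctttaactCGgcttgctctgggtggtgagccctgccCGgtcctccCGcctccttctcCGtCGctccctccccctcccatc
The Tjp1 stretch holds 19 CG pairs in 151 bases, against 5 in the 151 bases of Cldn3. Over the 300-base windows, G and C made up 65.3% for Tjp1, 60.7% for Cldn3 and 56.0% for Cldn1. Both strands of the windows were searched for 3 motifs: TGANTCA of AP-1, found in 7.81% of 32851 promoter windows, GGAATG of TEAD factors, in 14.7%, and the E-box CAGGTG that Snail and Zeb factors bind, in 20.2%. No window held the AP-1 letters, and the Cldn1 and Tjp1 windows held none of the 3. The Cldn3 window had 1 E-box, 31 bases after the start, the Ocln windows also had E-boxes, and the Cldn2 window had the TEAD letters 147 bases before and 27 bases after the start. A match is a description of the letters and not of binding.

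In advanced FPC livers, open chromatin near Cdh1 and Cldn3 was higher than in controls, and that near Cldn1 and Tjp1 was lower. Near Cdh2, Cldn2 and Ocln the test made no call. In advanced CDAHFD livers Cdh1 and Cldn3 were again higher and Cldn1 lower. The Cldn3 change there was small (log2 change 0.13), and several alternatives given below lost its call. A call means a Benjamini-Hochberg adjusted p under 0.05 over all genes in edgeR's quasi-likelihood test. Thus 4 of 7 genes were called in advanced FPC livers, where 61.5% of all genes were called (32.4% higher, 29% lower), and 3 of 7 in advanced CDAHFD livers, where 58.2% were (30.2% higher, 28% lower). These shares do not set the 7 genes apart. Their median log2 change was -0.06 on FPC and -0.01 on CDAHFD, beside 0.03 and 0.01 for all genes.

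**Figure D1:**
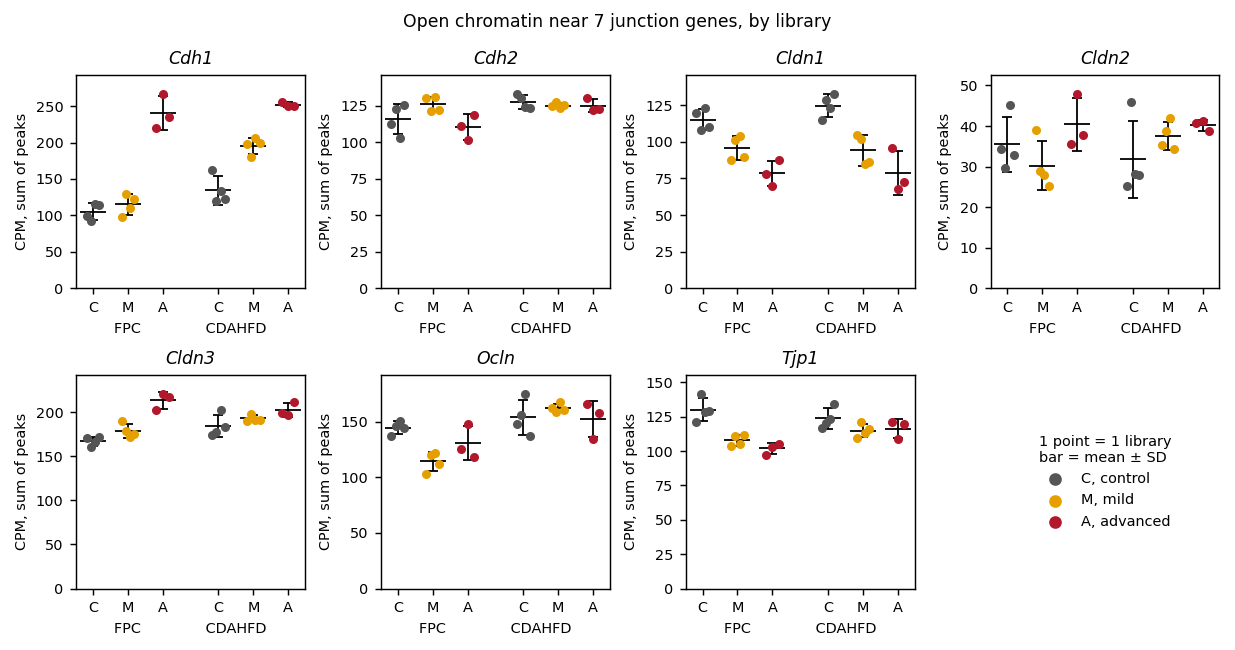
Open chromatin summed over the peaks of each gene, in CPM, for each of the 22 libraries, with control (C), mild (M) and advanced (A) livers of each diet from left to right; points are libraries and bars are mean ± SD. Cdh1 is near 241 and 252 CPM in advanced livers of the FPC and CDAHFD arms, against 105 and 135 CPM in their controls, while Cldn1 averages 78.5 and 78.8 CPM in the advanced groups.

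Cdh1 had the largest change of the 7 genes. Its gene sum was 220.3, 267 and 235 CPM in the 3 advanced FPC livers, against 98.6, 92.0, 115 and 114 CPM in FPC controls. In the CDAHFD arm it was 256, 250.2 and 249.9 CPM in advanced livers, against 163, 119, 133 and 123 CPM in controls. Every advanced library was above every control library in both arms. Taking each arm alone, that held for 31.1% of all gene sums on FPC and 28.7% on CDAHFD. With either direction counted, advanced and control libraries did not overlap for 58.6% and 55.2% of all gene sums. Mild and control libraries did not overlap for 35.6% and 38.9%. The log2 change of Cdh1 was 1.19 ± 0.10 (SE, edgeR adjusted p 5.84e-10) on FPC, which 5.12% of all genes exceeded, and 0.90 ± 0.09 (adjusted p 1.63e-08) on CDAHFD, which 7.09% exceeded.

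The stages between differed in pattern. Mild FPC livers stood at 98.1, 129.7, 110.2 and 122 CPM, overlapping their controls, and were not called (0.13 ± 0.10, adjusted p 0.31). Mild CDAHFD livers stood at 198, 180.1, 206 and 199.8 CPM, above every control and below every advanced liver, and were called (0.54 ± 0.09, adjusted p 2.97e-05). The FPC change at the mild stage minus the CDAHFD one was -0.41 (95% interval -0.68 to -0.14), with an adjusted p of 0.0676, so this contrast between diets missed the threshold. It passed without FPC mild replicate 2 (adjusted p 0.0425), FPC control replicate 2 (0.0457) or CDAHFD control replicate 1 (0.0129), and the mild CDAHFD change itself was not called over peaks within 10 kb (0.22, adjusted p 0.0751). Advanced exceeded mild by 1.06 ± 0.10 on FPC (adjusted p 2.48e-08) and by 0.36 ± 0.09 on CDAHFD (adjusted p 0.00743). In order of level, advanced CDAHFD and advanced FPC were highest and overlapped, and mild CDAHFD came next with no overlap on either side. Below it lay CDAHFD controls, mild FPC and FPC controls, each of which overlapped its neighbour.

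At the level of single peaks, 15 of the 19 Cdh1 peaks were higher in advanced FPC livers and none lower, in a test where 27.6% of all peaks were higher and 28% lower (55.6% called). In advanced CDAHFD livers 15 of 19 were also higher and none lower, where 26.7% of all peaks were higher and 28.8% lower (55.5% called). They were the same 15 peaks in both diets. Their log2 changes ran from 0.59 to 3.08 on FPC and from 0.62 to 4.62 on CDAHFD, with both largest values in the peak 12851 bp after the start, which averaged only 2.10 CPM. With cyclic loess scaling of log2 CPM in limma, 12 of the 19 were higher on FPC and 9 on CDAHFD, and the 12851 bp peak stood at -0.10 and 0.29 and was called in neither. Every deposited peak reached at least 31.5 counts in some library. A peak almost closed in controls was thus listed through its diseased libraries and could hardly be called lower. The 12851 bp peak, for example, had 2.5, 2, 2 and 4 counts in FPC controls, against 15.5, 54.5 and 26 in advanced FPC livers. This limit also holds for such peaks of the other genes, as for the Cldn2 peak 2689 bp before its start. All but 2 of the 19 Cdh1 peaks lie in intron 2 of 15 of the gene, the exceptions being the promoter peak and 1 intergenic peak upstream of it.

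The promoter peak, centred 12 bp before the start (chr8:106603238-106603438, mm10), had 21.7, 29.5 and 23.4 CPM in advanced FPC livers, against 4.60, 7.69, 5.38 and 8.60 CPM in controls. On CDAHFD it had 20.1, 24.0 and 21.3 CPM in advanced livers, against 9.18, 7.48, 9.27 and 9.17 CPM in controls. No libraries overlapped, as for 53% of all peaks on FPC and 53.3% on CDAHFD. The log2 changes of the promoter peak were 1.95 ± 0.19 (edgeR adjusted p 3.8e-09) and 1.30 ± 0.17 (adjusted p 2.9e-07). The peak of intron 2 that lies 16426 bp after the start was the most open of those that rose. It had 37.3, 50.4 and 39.8 CPM in advanced FPC livers, against 4.36, 3.18, 10.6 and 8.09 CPM in controls, a log2 change of 2.62 ± 0.27. In advanced CDAHFD livers it had 36.5, 39.4 and 35.9 CPM, against 15.3, 6.58, 10.9 and 4.07 CPM in controls (1.98 ± 0.24). Its share of the Cdh1 sum was thus 19.7% in advanced FPC livers, against 7.32% in FPC controls. The largest FPC change among peaks averaging at least 3 CPM, 2.91 ± 0.35, was 37813 bp after the start (6.24, 8.26 and 6.21 CPM, against 0.969, 1.86, 0.672 and 0.253 CPM), and 1.34 with cyclic loess.

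The 4 Cdh1 peaks that were not called lay 3887 bp before and 2482, 30154 and 30423 bp after the start. The 30154 bp peak averaged 20.0 CPM over all libraries, about as much as the 16426 bp peak at 20.7 CPM, and changed by 0.25 ± 0.11 on FPC and 0.12 ± 0.10 on CDAHFD. The rise was thus uneven across the intron. At the mild stage 2 Cdh1 peaks were higher and 1 lower on FPC (28.8% of all peaks called, 15.1% higher and 13.6% lower), and 11 higher and 1 lower on CDAHFD (40.7% called, 20.7% higher and 20% lower). The lower one was the 2482 bp peak in both diets, at -0.94 ± 0.23 on FPC and -0.59 ± 0.18 on CDAHFD.

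**Figure D2:**
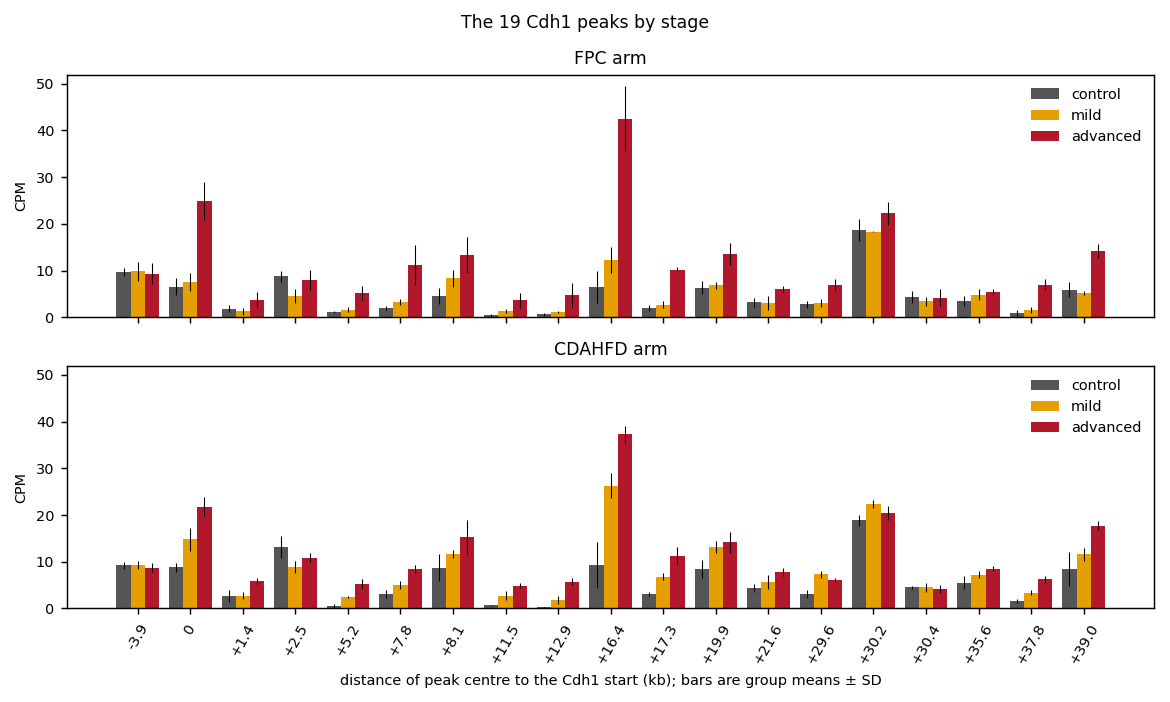
Mean CPM (± SD) of the 19 Cdh1 peaks in order of distance from the start, for control, mild and advanced livers of the FPC (top) and CDAHFD (bottom) arms. The peak 16426 bp after the start averages 42.5 CPM in advanced FPC livers and 37.3 CPM in advanced CDAHFD livers, while the peak at 30154 bp averages 20.0 CPM over all libraries and was not called.

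Markers of bile duct cells were also higher in advanced livers. Of 12 cholangiocyte markers 10 had a peak, and 8 of these were higher and 1 lower in advanced FPC livers, and 6 higher and 1 lower in advanced CDAHFD livers. Of all genes, 32.4% were higher and 29% lower on FPC, and 30.2% and 28% on CDAHFD. The summed level of these markers was 566 to 663 CPM in advanced FPC livers, against 384 to 434 CPM in FPC controls, and 478 to 542 CPM in advanced CDAHFD livers, against 406 to 428 CPM in CDAHFD controls. At the mild stage 5 of the 10 markers were higher and none lower on each diet. Of all genes, 21.3% were higher and 18.9% lower on FPC there, and 23.9% and 21% on CDAHFD. The marker sum was 437 to 481 CPM in mild FPC livers, above every control although Cdh1 was not called there, and 397 to 457 CPM in mild CDAHFD livers, overlapping the controls although Cdh1 was called. The keratin Krt19 rose by 3.12 ± 0.39 and 3.50 ± 0.43 and Epcam by 2.77 ± 0.27 and 2.18 ± 0.26, whereas the water channel Aqp1 fell by 0.53 ± 0.12 and 0.36 ± 0.12 (FPC and CDAHFD). Krt19 rests on 1 peak, with 9.89 and 6.06 CPM in advanced livers, against 1.18 and 0.524 CPM in controls. Cftr had no peak within the limit. Of 6 macrophage markers with a peak, 4 were higher and 2 lower in advanced FPC livers, and 2 higher and 2 lower on CDAHFD. For 9 endothelial markers these counts were 2 and 4 on FPC, and 1 and 5 on CDAHFD. For 4 lymphocyte markers they were 0 and 3 on FPC, and 1 and 3 on CDAHFD. Only 2 of 12 stellate cell markers had a peak, with 1 higher and 0 lower on each diet. Of the 10 hepatocyte markers, 0 were higher and 8 lower in advanced livers of each diet. At the mild stage 0 were higher on either diet, and 4 were lower on FPC and 6 on CDAHFD. The summed hepatocyte markers were lower in advanced livers, at 1495 to 1861 CPM on FPC and 1702 to 1850 CPM on CDAHFD, against 2131 to 2228 and 2002 to 2225 CPM in controls. In mild livers the sum was also below every control, at 1725 to 2068 CPM on FPC and 1787 to 1925 CPM on CDAHFD. The part of any of these cell types in the Cdh1 change was not tested.

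Cdh2, the other classical cadherin of hepatocytes, was not called against controls at either stage of either diet. Its gene sum was 111, 101 and 119 CPM in advanced FPC livers, against 112, 123, 103 and 126 CPM in controls. On CDAHFD it ran from 122 to 130.1 CPM in advanced livers, against 123 to 133 CPM in controls. The log2 changes were -0.06 ± 0.07 and -0.03 ± 0.06. Advanced FPC livers were lower than mild ones by 0.19 ± 0.06 (adjusted p 0.0207), where 31.5% of all genes were called (15.6% higher, 15.9% lower). Of its 7 peaks none was called in advanced FPC livers, where 55.6% of all peaks were. On CDAHFD, where 55.5% were, 1 was called as higher and 1 as lower. The higher one, 11683 bp after the start (0.32 ± 0.14, adjusted p 0.0451), lost its call without advanced replicate 2 or 3 or any 1 of the 4 controls (adjusted p 0.0553 to 0.126). The promoter peak, 124 bp before the start, changed by -0.17 ± 0.14 and -0.07 ± 0.12. The peak 19133 bp after the start had 5.13, 4.67 and 4.55 CPM in advanced CDAHFD livers, against 10.3, 6.28, 8.55 and 6.11 CPM in controls (-0.71 ± 0.23, adjusted p 0.01, and 0.0517 without CDAHFD control replicate 1). With Cdh2 peaks at any distance counted, the advanced FPC sum was called as lower (-0.20, adjusted p 0.00426). The difference between advanced and mild FPC livers was lost without FPC advanced replicate 2 (-0.14, adjusted p 0.168), mild replicate 1 (0.0505) or mild replicate 3 (0.0601).

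Cldn1, a claudin that seals the canaliculus, was lower in all 4 diseased groups. Its gene sum was 78.3, 70.0 and 87.3 CPM in advanced and 87.4, 101, 104 and 89.8 CPM in mild FPC livers, against 119, 108, 123 and 109.9 CPM in FPC controls. On CDAHFD it was 95.8, 68.1 and 72.4 CPM in advanced and 105, 102, 84.6 and 85.9 CPM in mild livers, against 115, 129, 123 and 133 CPM in controls. No diseased library reached any control of its arm. Of all gene sums, 27.5% and 26.5% lay wholly below controls in advanced FPC and CDAHFD livers, and 16.5% and 18% in mild ones. The Cldn1 log2 changes were -0.56 ± 0.11 (edgeR adjusted p 8.25e-05) and -0.65 ± 0.10 (7.05e-06) at the advanced stage. At the mild stage they were -0.27 ± 0.10 (0.0299) on FPC and -0.40 ± 0.09 (0.000981) on CDAHFD. At the mild stage 40.2% of all genes were called on FPC (21.3% higher, 18.9% lower) and 44.9% on CDAHFD (23.9% higher, 21% lower). The advanced FPC change minus the advanced CDAHFD change was 0.09 (95% interval -0.21 to 0.39). The mild FPC call was lost without FPC mild replicate 1 (-0.23, adjusted p 0.0835), mild replicate 4 (0.0826), control replicate 1 (0.0658) or control replicate 3 (0.0984), whereas both advanced calls held with each library left out (-0.66 to -0.50 on FPC and -0.85 to -0.58 on CDAHFD).

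The Cldn1 peaks that were lower lay at or after the start, where most of its 7 peaks lie. The largest, 3585 bp after the start, held 35.2% of the Cldn1 signal. It averaged 24.4 CPM in advanced FPC livers, against 34.2 CPM in controls, and 24.1 CPM in advanced CDAHFD livers, against 37.5 CPM. The peak over the start itself (3 bp after it, chr16:26371736-26371936, mm10, the sequence printed above) was not called on FPC (-0.16 ± 0.19) and was lower on CDAHFD (-0.47 ± 0.18, adjusted p 0.024), a call lost without CDAHFD advanced replicate 3 (adjusted p 0.132), control replicate 3 (0.0539) or control replicate 4 (0.0731). The peak 381 bp after the start, in exon 1 of 4, had 4.72, 4.56 and 5.41 CPM in advanced FPC livers, against 11.9, 5.57, 9.75 and 7.08 CPM in controls (-0.82 ± 0.23). In advanced CDAHFD livers it had 4.27, 4.34 and 3.70 CPM, against 6.78, 10.9, 8.32 and 10.02 CPM in controls (-1.12 ± 0.22). The peak over exon 4 of 4, 12733 bp after the start, had 10.8, 9.69 and 11.8 CPM in advanced FPC livers, against 18.2, 18.3, 22.2 and 17.2 CPM (-0.83 ± 0.15), and was also lower on CDAHFD (-0.88 ± 0.14). In all, 4 of 7 Cldn1 peaks were lower on FPC and 5 of 7 on CDAHFD, 4 of them in both, and none was higher. Of all peaks, 28% were lower and 27.6% higher on FPC, and 28.8% and 26.7% on CDAHFD.

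Cldn2, a claudin that forms cation-permeable pores, was not called at either stage of either diet. Its sum was 35.6, 47.9 and 37.8 CPM in advanced FPC livers, against 34.4, 29.5, 45.2 and 32.9 CPM in controls, and the groups overlapped. On CDAHFD it was 40.8, 41.1 and 38.7 CPM in advanced livers, against 25.1, 45.9, 28.1 and 28.0 CPM in controls, where the 45.9 CPM library also overlapped. Without that library, CDAHFD control replicate 2, Cldn2 was called as higher in advanced (0.55, adjusted p 0.00186) and mild (0.45, adjusted p 0.0085) CDAHFD livers, and the diet difference at the mild stage was called (-0.73, adjusted p 0.0206). Behind the sum its 3 peaks differed. The intergenic peak 2689 bp before the start had 6.58, 14.1 and 9.23 CPM in advanced FPC livers, against 1.45, 2.12, 1.01 and 2.02 CPM in controls (2.65 ± 0.29, adjusted p 3.1e-08). On CDAHFD it had 5.34, 7.68 and 8.25 CPM in advanced livers, against 0.706, 1.05, 0.475 and 0.509 CPM in controls (3.33 ± 0.32, adjusted p 1.7e-09). The intron 1 peak 6575 bp after the start fell by 0.83 ± 0.19 and 0.90 ± 0.18. The largest peak, also in intron 1 and 7507 bp after the start, held 59.8% of the Cldn2 signal and was not called on FPC (0.17 ± 0.24). On CDAHFD it had 24.0, 23.4 and 18.8 CPM in advanced livers, against 11.2, 24.8, 11.9 and 12.4 CPM in controls (0.56 ± 0.22, adjusted p 0.0365), and the groups overlapped. That call was lost without advanced replicate 1 or 2 or control replicate 1, 3 or 4 (adjusted p 0.0817 to 0.12). No Cldn2 peak lay within 1 kb of the start.

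Cldn3, another sealing claudin, rose in both advanced groups, by little and not in every setting on CDAHFD. Its sum was 203, 220.4 and 217 CPM in advanced FPC livers, against 171, 160.5, 166 and 172 CPM in controls, with no overlap, as for 58.6% of all gene sums (0.35 ± 0.06, adjusted p 8.1e-06). On CDAHFD it was 199, 197 and 211 CPM in advanced livers, against 174, 178, 203 and 183 CPM in controls, and these overlapped (0.13 ± 0.05, adjusted p 0.039). The CDAHFD call was lost without any 1 of the 3 advanced libraries (adjusted p 0.0848 to 0.297) or without control replicate 1, 2 or 4 (0.0657 to 0.191), and over peaks within 10 kb the change was -0.04 (adjusted p 0.564). Within 10 kb the FPC change was 0.10 (adjusted p 0.122). It was not called at the mild stage (0.10 ± 0.05 and 0.06 ± 0.05). The peak over the start, 51 bp before it, held 75.0, 75.2 and 72.2 CPM in advanced FPC livers, against 62.5, 52.5, 63.4 and 59.2 CPM in controls (0.31 ± 0.07). On CDAHFD it held 68.2, 72.8 and 73.1 CPM, against 54.2, 61.2, 64.6 and 61.5 CPM in controls (0.24 ± 0.06). A larger relative change lay in a pair of overlapping intergenic peaks 19595 and 19484 bp upstream. The first had 16.9, 22.5 and 21.96 CPM in advanced FPC livers, against 5.57, 3.71, 5.38 and 4.05 CPM in controls (2.10 ± 0.18, adjusted p 3.8e-10). On CDAHFD it had 17.1, 12.8 and 17.6 CPM, against 5.08, 6.28, 7.37 and 6.28 CPM in controls (1.34 ± 0.16). It was also higher in mild livers of both diets (0.92 ± 0.19 and 0.72 ± 0.16). The peaks 4956 and 2920 bp upstream were lower in advanced CDAHFD livers (-0.35 ± 0.08 and -0.46 ± 0.18) and not called on FPC; the 2920 bp call was lost without advanced replicate 1 or 2 or control replicate 2 or 3 (adjusted p 0.0666 to 0.132). The cholangiocyte markers given beside Cdh1 were higher in the same advanced livers as Cldn3 and the Cldn2 upstream peak, and their part was not tested.

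Ocln, the occludin gene, was lower at the mild stage of FPC and not called elsewhere against controls. Its sum was 103, 119.8, 121 and 112 CPM in mild FPC livers, against 137, 146, 150.4 and 144 CPM in controls, with no overlap, as for 35.6% of all gene sums (-0.34 ± 0.08, edgeR adjusted p 0.00185). The advanced FPC livers had 125, 148 and 118 CPM (-0.15 ± 0.08, adjusted p 0.14). On CDAHFD mild livers had 162, 158, 167 and 161 CPM, against 147, 156, 174 and 137 CPM in controls (0.07 ± 0.07). The mild FPC change minus the mild CDAHFD change was -0.41 ± 0.11 (adjusted p 0.0267), the only difference between diets called among the 7 genes, where 5.27% of all genes were called at the mild stage (2.49% higher, 2.79% lower). The intergenic peak 29188 bp upstream had 4.38, 8.55 and 6.36 CPM in advanced FPC livers, against 1.94, 1.06, 2.35 and 0.506 CPM in controls (2.05 ± 0.39). On CDAHFD it had 8.33, 8.18 and 8.11 CPM, against 1.41, 1.79, 1.66 and 0.679 CPM in controls (2.52 ± 0.34). Among alternatives, the diet difference was lost without FPC mild replicate 1 (adjusted p 0.0526), mild replicate 4 (0.0507), FPC control replicate 3 (0.0665) or CDAHFD mild replicate 3 (0.0527), and the advanced FPC sum was called as lower without advanced replicate 2 (-0.27, adjusted p 0.0141). The larger promoter peak, whose sequence is printed above, had 11.05, 13.8, 15.1 and 17.5 CPM in mild FPC livers, against 17.2, 21.2, 18.5 and 17.7 CPM in controls. It was lower there (-0.36 ± 0.13, adjusted p 0.0418), the groups overlapped, and the call was lost without mild replicate 1, 2 or 3 or control replicate 2, 3 or 4 (adjusted p 0.0521 to 0.146). In advanced livers neither the larger peak (0.07 ± 0.14 on FPC and 0.26 ± 0.13 on CDAHFD, called without control replicate 3 with adjusted p 0.0397) nor the smaller one at the other start (0.15 ± 0.22 and -0.01 ± 0.20) was called.

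Tjp1, the scaffold ZO-1 that ties claudins and occludin to actin, was lower on FPC at both stages. Its sum was 97.5, 103 and 105 CPM in advanced and 104, 111, 105 and 112 CPM in mild FPC livers, against 121, 141, 128 and 129 CPM in controls. No diseased FPC library reached a control, where 58.6% of all gene sums did not overlap at the advanced and 35.6% at the mild stage. The Tjp1 changes were -0.35 ± 0.06 (adjusted p 4.24e-05) and -0.27 ± 0.06 (0.000971). On CDAHFD it was 121, 108 and 119.6 CPM in advanced livers, against 117, 120.3, 124 and 135 CPM in controls (-0.09 ± 0.06, not called). The advanced FPC change minus the CDAHFD one was -0.27 (95% interval -0.44 to -0.09), with an adjusted p of 0.0749, so a difference between diets was not called. It was called without CDAHFD advanced replicate 2 (-0.31, adjusted p 0.049) or control replicate 4 (-0.30, adjusted p 0.0372), and with Tjp1 peaks at any distance counted the advanced FPC change was -0.09 (adjusted p 0.265). The CG-rich promoter peak printed above was not called: it had 18.9, 23.1 and 24.7 CPM in advanced FPC livers, against 19.1, 26.0, 23.4 and 23.5 CPM in controls (-0.05 ± 0.11). The peak 5680 bp after the start, in intron 1 of 27, had 3.71, 2.85 and 3.50 CPM in advanced FPC livers, against 7.27, 6.89, 9.08 and 5.06 CPM in controls (-1.10 ± 0.25). It was also lower on CDAHFD (-1.07 ± 0.23). In all, 4 of the 10 Tjp1 peaks were lower on FPC and none higher, and on CDAHFD 2 were lower and 1 higher (none higher without advanced replicate 1 or 2, and 1 lower without advanced replicate 2 or control replicate 4). Of all peaks, 28% were lower and 27.6% higher on FPC, and 28.8% and 26.7% on CDAHFD.

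**Figure D3:**
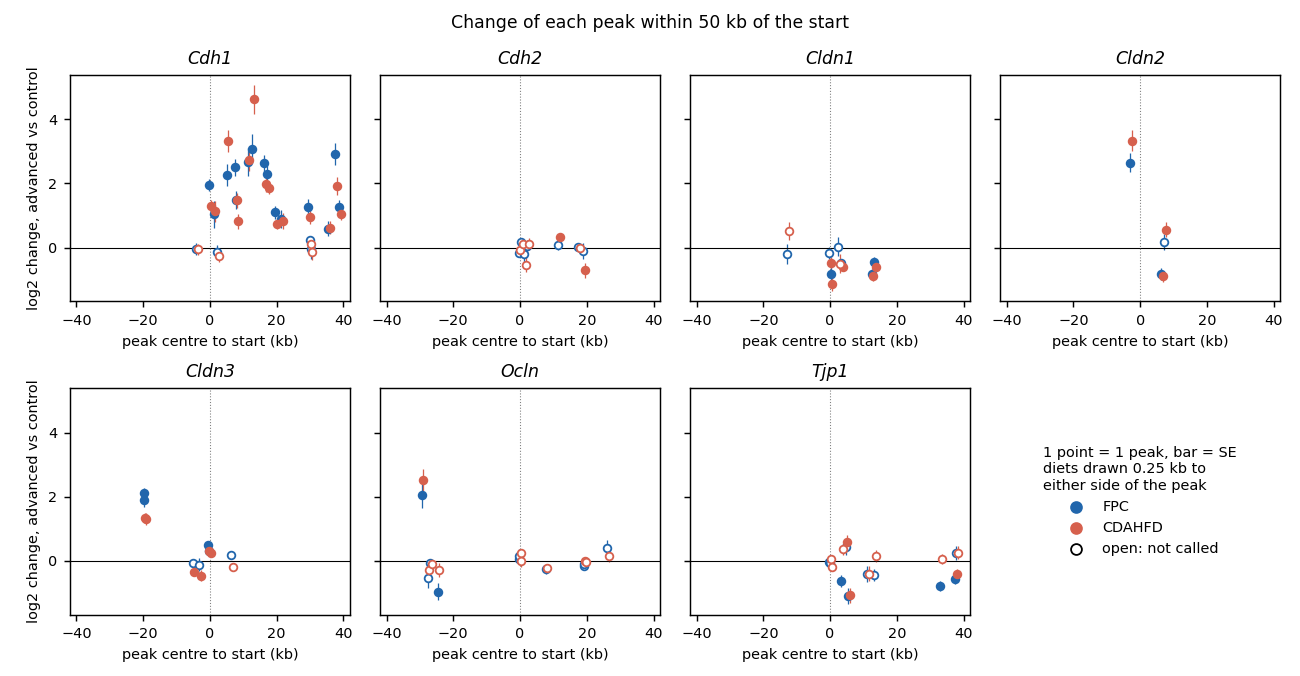
Log2 change (± SE) of each of the 63 peaks between advanced and control livers of the FPC (blue) and CDAHFD (red) arms, against the distance of the peak centre from the gene's start in kb; filled points were called. Cdh1 intron peaks reach 3.08 on FPC and 4.62 on CDAHFD, the upstream peaks of Cldn2, Cldn3 and Ocln reach 2.65, 2.10 and 2.05 on FPC, and the Tjp1 and Cdh2 start peaks lie near 0.

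Taking all 63 peaks, 21 were higher and 10 lower in advanced FPC livers, and 24 higher and 11 lower in advanced CDAHFD livers. That is 49.2% and 55.6% called, near the 55.6% and 55.5% of all peaks. Outside Cdh1, 6 of 44 peaks were higher and 10 lower on FPC, and 9 higher and 11 lower on CDAHFD, beside 27.6% and 26.7% of all peaks higher and 28% and 28.8% lower. All 21 peaks that rose on FPC also rose on CDAHFD, where they were 87.5% of those that rose; for all peaks the shared part was 75.2% of the FPC and 77.5% of the CDAHFD set. Of the lower peaks 7 were shared, 70% of the FPC and 63.6% of the CDAHFD set, and none moved in opposite directions. Peaks within 1 kb of a start were called in 4 of 11 cases on FPC and 5 of 11 on CDAHFD, and more distant ones in 27 and 30 of 52. Over all genes 51% and 45.1% of promoter peaks and 56.2% and 58.3% of more distant peaks within 50 kb were called. Between mild and advanced livers 23 peaks were higher and 2 lower on FPC (14.7% and 14.6% of all peaks, 29.3% called), and 12 higher and 2 lower on CDAHFD (9.28% and 7.26% of all peaks, 16.5% called). Of these, 16 and 9 belonged to Cdh1. On CDAHFD the 12 became 7 without advanced replicate 2 and 8 without mild replicate 2.

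At the mild stage 3 genes were lower and none higher on FPC, and 1 was higher and 1 lower on CDAHFD. Between advanced and mild livers Cdh1 and Cldn3 were higher and Cdh2 and Cldn1 lower on FPC (Cldn1 by 0.29, adjusted p 0.0395, and not called without advanced replicate 1 or 2 or mild replicate 2 or 3, while Cldn2 was called as higher without advanced replicate 1 or mild replicate 1 and Ocln without advanced replicate 3), and Cdh1 alone was called, as higher, on CDAHFD (joined by Cldn1, at -0.43 and adjusted p 0.00717, without advanced replicate 1), where 17.4% of all genes were called (9.63% higher, 7.76% lower). No gene was called for a difference between diets at the advanced stage in edgeR or with DESeq2's Wald test, where 3 had an unadjusted p under 0.05 and 4.87% of all genes were called (1.92% higher, 2.95% lower). No peak was called for such a difference at either stage (10 and 14 with an unadjusted p under 0.05, where 1.6% of all peaks were called at the advanced stage, 0.69% higher and 0.91% lower, and 3.47% at the mild stage, 1.84% higher and 1.63% lower). The controls of the arms were also compared, since they differ in duration: Cdh1 was lower in 20 week than in 7 week controls by 0.35 ± 0.10 (adjusted p 0.0281), and the other 6 genes were not called, where 6.04% of all genes were (3.79% higher, 2.26% lower). That call was lost without 20 week control replicate 1 (adjusted p 0.0864) or 2 (0.0957), or 7 week control replicate 1 (0.109) or 3 (0.059). Comparisons of advanced and of mild livers share the controls of their arm.

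All peaks are 200 bp wide, so the CPM per peak compares genes on a like footing. Over all libraries Cldn3 had 26.9 CPM per peak, above 82.4% of genes, followed by Cdh2 with 17.4, Ocln with 14.3 and Cldn1 with 14.2, Cldn2 with 11.9 and Tjp1 with 11.6. Cdh1 came last with 8.80, above 18.7% of genes, and the median gene had 15.4 CPM per peak. The high sum of Cdh1 thus came from its number of peaks, 19 against 2 for the median gene. That number includes peaks almost closed in controls, which are listed through their diseased libraries.

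Other genes of these junctions were taken from lists chosen with earlier results known, counting genes with a peak, and each count stands beside 32.4% of all genes higher and 29% lower on FPC, and 30.2% higher and 28% lower on CDAHFD. Of 9 catenin and nectin genes, which bind cadherin tails or act beside them, 6 were higher and 2 lower in the advanced livers of each diet (median log2 change 0.33 and 0.24). Afdn (afadin) rose by 0.70 ± 0.06 and 0.59 ± 0.06, and the catenins Ctnna1 and Jup by 0.42 to 0.46 in both diets. Of 7 other cadherins, 2 rose and 2 fell in each. The P-cadherin gene Cdh3 rose by 2.98 ± 0.31 on FPC and 1.64 ± 0.29 on CDAHFD, from a low level: 11 and 5.44 CPM in advanced livers, against 1.38 and 1.73 CPM in controls. Cdh3 rests on 1 peak.

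The 14 other claudins split, with 5 higher and 6 lower in each advanced group. Cldn6, a claudin of embryonic epithelia, had 27.2 CPM in advanced FPC and 28.7 CPM in advanced CDAHFD livers, against 1.96 and 1.01 CPM in controls (3.73 ± 0.22 and 4.80 ± 0.23). Cldn7 rose by 3.73 ± 0.38 and 3.65 ± 0.41, and Cldn4 by 1.23 ± 0.14 and 1.13 ± 0.13. Cldn10 fell by 0.25 ± 0.11 and 1.08 ± 0.11. Cldn18, singled out after its values were seen, had 0.662 and 0.0825 CPM in advanced livers, against 12.2 and 5.87 CPM in controls of the FPC and CDAHFD arms. Each of Cldn6, Cldn7 and Cldn18 rests on 1 peak.

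Of 16 tight junction membrane proteins and scaffolds, 7 were higher and 5 lower on FPC, and 6 higher and 3 lower on CDAHFD. F11r, the junctional adhesion molecule JAM-A, rose by 0.18 ± 0.06 (adjusted p 0.013) and 0.53 ± 0.06 (4.94e-08), with 115 and 132 CPM in advanced livers, against 101 and 90.7 CPM in controls of the FPC and CDAHFD arms. Ildr1, a protein of tricellular junctions, rose by 3.52 ± 0.43 and 2.94 ± 0.46 from under 1 CPM, on 1 peak. Ildr2, of the same family, fell by 0.83 ± 0.11 on FPC and was not called on CDAHFD (-0.13 ± 0.10). Among 14 polarity genes 7 rose and 2 fell on FPC, and 6 rose and 1 fell on CDAHFD. Of 9 desmosome genes 5 rose in each, with 2 lower on FPC and 1 on CDAHFD. Those with the smallest p included Evpl (0.89 ± 0.10 and 0.67 ± 0.10) and Ppl (0.62 ± 0.10 and 0.71 ± 0.10), which rose, and Dsc2, which fell. The largest change of the list was that of the plakophilin gene Pkp3, singled out after its values were seen (2.13 ± 0.41 and 1.74 ± 0.47), on 1 peak with 7.57 and 3.36 CPM in advanced livers, against 1.78 and 0.952 CPM in controls. The gap junction gene Gjb1 (connexin 32) fell by 0.77 ± 0.08 and 0.34 ± 0.08.

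Of 11 epithelial and mesenchymal transcription factor genes, 7 rose and 1 fell on FPC, and 6 rose and 2 fell on CDAHFD. Grhl2 and Grhl3, grainyhead factors that act on epithelial junction genes including Cdh1, rose by 3.88 ± 0.44 and 4.22 ± 0.50 and by 2.61 ± 0.21 and 2.04 ± 0.18. Grhl2 had 8.95 and 5.17 CPM in advanced livers, against 0.573 and 0.246 CPM in controls, on 1 peak. Grhl3 also rests on 1 peak, with 14.55 and 13.4 CPM in advanced livers, against 2.36 and 3.30 CPM in controls. On FPC and CDAHFD the median log2 changes were 0.02 and -0.14 for the other cadherins, 0.13 and -0.11 for the other claudins, and -0.02 and 0.14 for the tight junction membrane proteins and scaffolds. They were 0.16 and 0.07 for the polarity genes, 0.29 and 0.40 for the desmosome genes, and 0.41 and 0.26 for the transcription factor genes, all beside 0.03 and 0.01 for all genes.

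**Figure D4:**
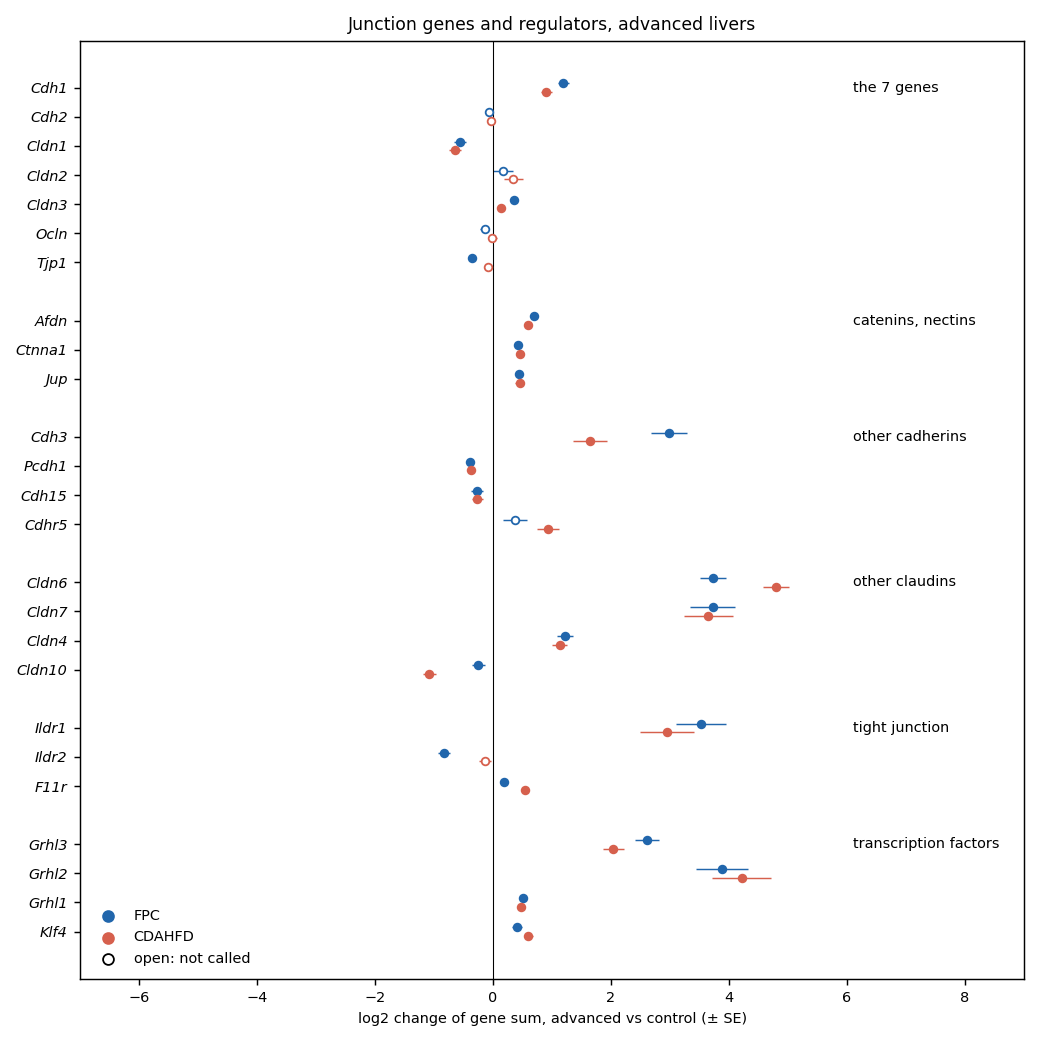
Log2 change of the gene sum (± SE) between advanced and control livers of the FPC (blue) and CDAHFD (red) arms, for the 7 genes and for the leading genes of 5 lists; filled points were called. Cldn6, Cldn7, Ildr1, Grhl2 and Grhl3 lie above 2 in both arms. Each was named for its small p and rests on 1 peak, with at most 3.30 CPM on average in controls. Among the 7 genes the largest value is 1.19, for the sum of 19 Cdh1 peaks, which is not a like measure. Single Cdh1 peaks reach 3.08 on FPC and 4.62 on CDAHFD.

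Pearson's r of log2 CPM over the 22 libraries is given as a description only, since differences of stage and diet between libraries enter it. By this r, the genes whose sums followed each member most closely were found. For Cdh1 they were Dync1h1 (r = 0.947), Dtnb and Gpr37l1 (both 0.945), for Cldn1 Gm15348 (0.940), for Cldn3 Epc1 (0.896), for Cldn2 Zbtb20 (0.893), for Tjp1 Nr5a2 (0.880), for Ocln Tbc1d30 (0.853) and for Cdh2 Slc4a4 (0.811). Among the 7, Cdh1 and Cldn3 had r = 0.819 and Cdh1 and Cldn1 r = -0.702.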

How the data were processed

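ATAC-seq was done on bead-bound liver nuclei and sequenced as read pairs, per the labels' protocols. The submitters' processing notes name the mm10 build and, as tools, HOMER, DESeq2, SAMtools and BWA (0.7.5a-r405). The authors deposited an un-normalized table of estimated counts per peak in steps of 0.5 (47.8% of values carry a fraction of 0.5, whose origin is not given in the sources used here), with each peak's nearest gene and distance to its start. Their normalized table was not used.

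Counts were rounded to whole numbers, or summed per gene over peaks within 50000 bp and then rounded. They were tested in R 4.3.3 with edgeR 4.0.16, limma 3.58.1 and DESeq2 1.42.0 serving alternatives. Libraries were scaled by TMM, separately for peaks and gene sums, so a gene's CPM is not the exact sum of its peaks' CPM. filterByExpr kept all 68827 peaks and 15686 genes, so every one of the 63 peaks and 7 genes was tested. One quasi-likelihood fit held all 22 libraries in 6 groups, and a Benjamini-Hochberg adjusted p below 0.05 made a call. SE is the log2 change divided by the square root of F, and CPM values of groups are mean ± SD over libraries. Overlapping neighbours (3149 pairs over all peaks) share reads.

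Named peaks are the one nearest to the start and the called peak of at least 3 CPM with the largest change in each advanced group. From each list up to 3 genes with the smallest p per diet are named. A gene that this rule names is not reported here. The members, lists and tests were chosen with earlier results of these data known. Replicate numbers only name libraries. The labels name no batch. The test was checked on simulated counts. Alternatives were other scalings, tests, filters, peak windows, fits of the compared groups alone, and each library left out.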

Additional observations from a re-analysis of the deposited data

Results flagged for a closer look

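Over the 7 gene sums and the peaks named by the rule above, 88 groups of 4 libraries were screened for a library that stood apart by Dixon's criterion, and 3 had one. Other peaks given in the text were not screened. Among these, the Cldn2 peak 7507 bp after the start had 24.8 CPM in CDAHFD control replicate 2, against 11.2, 11.9 and 12.4 CPM in the other controls. By chance about 1 in 20 such groups has one. CDAHFD control replicate 2 had a Cldn2 gene sum of 45.9 CPM, where the other 3 controls had 25.1 to 28.1 CPM. The same library had 7.48 CPM at the Cdh1 promoter peak, where the other 3 had 9.17 to 9.27 CPM. Mild FPC replicate 3 had 17.9 CPM at the Cldn1 peak 12733 bp after the start, where the other 3 mild FPC livers had 13.5 to 14 CPM. One difference between the diets passed its test: the log2 change of Ocln between mild and control livers was lower on FPC than on CDAHFD, by -0.41.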

How the results depend on the processing

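A value counts as reversed if its sign changed and it was called in the main test or the alternative. Of 1195 log2 changes of the 7 gene sums recomputed under an alternative, 1110 kept their side of the threshold, 52 lost their call, 32 gained one and 1 reversed. The 1110 include 34 values that changed sign without a call in either. Of the 574 with a library left out, 535 kept their side (9 of them with a change of sign), 25 lost and 14 gained a call. Of 4644 log2 changes of the 63 peaks, 4398 kept their side (183 of them with a change of sign), 197 lost and 42 gained a call and 7 reversed. The reversed gene value was Cldn3 in advanced against control CDAHFD livers, -0.038 over peaks within 10 kb. The 7 reversed peak values were all in Cdh1 under cyclic loess. In advanced against control livers they were -0.419 (FPC) and -0.511 (CDAHFD) for the 1360 bp peak, -0.099 (FPC) for the 12851 bp peak and -0.385 (CDAHFD) for the 11517 bp peak. In advanced against mild livers they were -0.029 (FPC) and -0.48 (CDAHFD) for the 11517 bp peak and -0.105 (CDAHFD) for the 5240 bp peak. None of the 7 was called, and these peaks average between 2.10 and 2.85 CPM. Of the counts of genes called in advanced against control livers, the 2 higher on FPC became 1 within 10 kb. The 2 higher on CDAHFD became 1, as Cldn3 lost its call and Cdh1 kept it. This held with DESeq2 size factors, DESeq2's Wald test, a 5 CPM filter, the compared groups alone, peaks within 10 kb or without each gene's largest peak. The 1 lower on CDAHFD became 2 with promoter peaks alone or peaks at any distance. At the mild stage, the 0 higher on FPC became 2 with cyclic loess and 1 with scaling from the table of all peaks, an alternative chosen after seeing the data. The 3 lower on FPC became 1 with promoter peaks alone, and the 1 higher on CDAHFD 0 within 10 kb. In advanced against mild FPC livers, the 2 higher became 1 within 10 kb and 4 without the largest peak or with scaling from all peaks. The 2 lower there became 1 within 10 kb or at any distance, and 0 with loess, promoters alone, no largest peak or scaling from all peaks. Among diet differences, the 0 higher at the advanced stage became 1 with loess or without the largest peak, and the 1 lower at the mild stage became 2 with the Wald test and 0 within 10 kb or at promoters alone. The 1 gene lower in 20 week than in 7 week controls became 2 with loess and 0 with the compared groups or promoters alone. Of peaks, the 2 lower in advanced than mild FPC livers became 1 with size factors, loess or the Wald test. On CDAHFD the 12 higher became 3 with loess, and the 2 lower became 1 with size factors, the 5 CPM filter or the compared groups alone and 0 with loess or the Wald test. With each library left out, gene counts ran from 0 to 2 (lower, FPC advanced against mild), 1 to 2 (higher, CDAHFD advanced against control), 1 to 2 (higher, and likewise lower, CDAHFD mild against control), 0 to 1 (lower, CDAHFD advanced against mild), 0 to 1 and 0 to 2 (lower, diet difference at the advanced and at the mild stage) and 0 to 1 (lower, controls). Peak counts ran from 2 to 5 higher and 6 to 9 lower in mild against control FPC livers, from 0 to 2 lower in advanced against mild FPC livers, and from 7 to 12 higher and 0 to 3 lower in advanced against mild CDAHFD livers. For all of these the cause was not tested, beyond the smaller set of peaks or libraries that an alternative leaves. Cdh1 and Cldn1 kept their advanced calls on both diets in every alternative run. No paired analysis was possible because no mouse gave more than 1 library and replicate numbers only name libraries. Depth limits the low peaks most: a peak of about 1 CPM rests on few counts per library.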

Other observations

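Cdh2 spans a long intron-rich locus, and 21 of its 28 peaks lay more than 50 kb from the start. In advanced livers 3 of these were higher and 7 lower on FPC, and 4 higher and 8 lower on CDAHFD, where 55.6% and 55.5% of all peaks were called. They include the peak 201339 bp after the start, singled out after its values were seen, which averaged 1.21 ± 0.19 CPM (SD, n = 3) in advanced FPC livers and 5.14 ± 1.09 CPM (n = 4) in mild FPC livers, against 15.4 ± 2.17 CPM (n = 4) in controls. On CDAHFD it averaged 2.91 ± 0.45 CPM (n = 3) in advanced and 5.29 ± 1.67 CPM (n = 4) in mild livers, against 11.6 ± 1.22 CPM (n = 4) in controls. Its log2 changes between advanced and control livers were -3.67 ± 0.26 and -1.98 ± 0.22 (edgeR adjusted p 2.51e-11 and 1.81e-08), and the change was lower on FPC than on CDAHFD by -1.69 ± 0.37 (adjusted p 0.0172). The peak 448808 bp after the start went the other way, with 15.8 ± 2.12 and 18.3 ± 0.58 CPM in advanced livers of the FPC and CDAHFD arms, against 5.59 ± 1.51 and 4.19 ± 1.70 CPM in controls.

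For Tjp1, 3 peaks lay about 95 to 99 kb upstream. In advanced livers 2 of these were higher and 0 lower on FPC, and 3 higher and 0 lower on CDAHFD. Of all peaks, 27.6% and 26.7% were higher and 28% and 28.8% lower. The largest of the 3, at 98563 bp, averaged 61.1 and 68.4 CPM in advanced livers of the FPC and CDAHFD arms, against 57.8 and 58.3 CPM in controls. The peak described next was not chosen by the rule for named peaks. The one at 96266 bp had 12.8 ± 1.34 and 12.9 ± 1.25 CPM in advanced livers, against 5.03 ± 1.40 and 5.67 ± 1.04 CPM in controls of the FPC and CDAHFD arms (log2 changes 1.37 ± 0.21 and 1.19 ± 0.19), whereas the Tjp1 sum within 50 kb was lower on FPC. Nearest-gene assignment over such distances does not show which gene a peak acts on.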
